A study of Homo sapiens with 12 samples.

Results

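Tubular injury and repair markers were examined in HK2 cells, an immortalised line of human proximal tubule cells. The set held 9 genes, taken by name for their known roles, out of 62703 gene identifiers. They were HAVCR1, LCN2, SPP1, CLU, VCAM1, CD44, PROM1, SOX9 and SOX4. All 9 were matched, and 7 passed the filter on low values (1 TPM or more in 3 of the 12 libraries), which SOX9 and PROM1 did not. TPM is a transcript level scaled to a fixed sum within each library and corrected for transcript length.

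RNA was sequenced from 4 groups with 3 libraries each. NG cells were kept in 5.5 mM glucose and received a control vector. HG cells were kept in 50 mM glucose. The si-FGF9 cells were kept in 5.5 mM glucose and transfected with an siRNA against FGF9, a growth factor of the fibroblast growth factor family. HG+OE-FGF9 cells were kept in 50 mM glucose and received a lentiviral vector that overexpresses FGF9. All groups were the same line, and no time in glucose or after transfection was found in the sources used here. No non-targeting siRNA and no vector for the HG group were described, so siRNA or vector delivery cannot be told apart from the change in FGF9. In HG versus NG, glucose likewise cannot be told apart from the control vector described for NG. The results text of the study names mannitol in the NG medium, where the labels name only 5.5 mM glucose, and adenovirus vectors, where the labels name lentivirus. Its methods state that experiments were repeated but do not tie the 3 libraries of a group to separate cultures, so p-values measure only the spread between libraries.

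When tubule cells are damaged, surviving cells lose their specialised features, spread over the bare basement membrane and divide. During this response they make KIM-1 (from HAVCR1), a surface receptor for dying cells, and NGAL (from LCN2), a secreted protein that binds iron carriers of bacteria. Both proteins are measured in urine as signs of tubular damage. SOX9 and SOX4 are transcription factors of repairing epithelium, PROM1 (CD133) marks cells with progenitor features, and VCAM1 and CD44 are adhesion molecules that stay high in tubules that fail to recover. SPP1 encodes osteopontin, a secreted ligand of integrins and CD44, and CLU encodes clusterin, a secreted chaperone.

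The deposited labels give 1 strand of the siRNA, which sets the si-FGF9 group apart. Its 19 bases before the TT end were found in 2 of the 3 FGF9 transcripts of GENCODE release 29. The other strand is the one whose seed (bases 2 to 8, in capitals) pairs with messages, and it is shown because chance matches to the seed can lower other messages.
siRNA strand in the labels: CUAUGUUGCAUUAAAUAAATT
Opposite strand with the seed in capitals: uUUAUUUAaugcaacauag
The site that pairs with this seed (TAAATAA) was present 1 time in the longest transcript of LCN2, 2 times in SOX4 and 1 time in PROM1. It was absent from the longest transcripts of HAVCR1, SPP1, CLU, VCAM1, CD44 and SOX9. Among the 14191 tested genes with a transcript sequence, 34.4% held the site.

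Promoter sequences are shown for the 3 markers that were lower in each main comparison (HAVCR1, SPP1 and VCAM1) and for LCN2, which was not. They span 250 bases before to 50 after the first annotated start, from RefSeq on GRCh38.p14. Promoters were taken for 7 of the 9 genes, as CLU was not looked up and no entry was found for SOX9. Capitals mark matches on either strand to AP-1 (TGANTCA), kB (GGGNNNNNCC) and TATA (TATAA) motifs.
HAVCR1, chr5:157059067-157059366, minus strand: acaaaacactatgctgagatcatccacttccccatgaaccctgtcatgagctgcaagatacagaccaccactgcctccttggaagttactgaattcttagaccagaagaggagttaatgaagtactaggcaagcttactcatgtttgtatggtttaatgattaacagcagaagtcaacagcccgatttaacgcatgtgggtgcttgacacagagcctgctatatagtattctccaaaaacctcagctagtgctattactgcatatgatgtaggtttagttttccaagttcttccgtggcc
SPP1, chr4:87975464-87975763, plus strand: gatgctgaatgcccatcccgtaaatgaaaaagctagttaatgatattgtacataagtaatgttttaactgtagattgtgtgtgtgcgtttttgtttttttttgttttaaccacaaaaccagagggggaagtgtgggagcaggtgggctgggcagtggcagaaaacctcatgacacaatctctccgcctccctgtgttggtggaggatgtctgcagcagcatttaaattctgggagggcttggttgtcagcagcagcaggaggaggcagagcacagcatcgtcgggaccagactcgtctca
VCAM1, chr1:100719492-100719791, plus strand: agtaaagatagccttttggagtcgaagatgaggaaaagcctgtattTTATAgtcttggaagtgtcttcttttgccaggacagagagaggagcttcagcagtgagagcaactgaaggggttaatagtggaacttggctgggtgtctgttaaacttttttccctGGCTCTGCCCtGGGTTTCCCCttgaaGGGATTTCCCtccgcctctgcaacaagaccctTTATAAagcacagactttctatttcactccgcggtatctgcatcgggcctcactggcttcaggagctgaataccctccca
LCN2, chr9:128149203-128149502, plus strand: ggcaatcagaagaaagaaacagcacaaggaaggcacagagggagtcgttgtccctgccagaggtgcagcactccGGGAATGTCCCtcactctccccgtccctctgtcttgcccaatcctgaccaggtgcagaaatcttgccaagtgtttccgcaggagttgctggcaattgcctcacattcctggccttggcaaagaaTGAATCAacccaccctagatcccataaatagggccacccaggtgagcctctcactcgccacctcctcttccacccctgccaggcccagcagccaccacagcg
Of all 35116 promoters of this length, 7.71% held AP-1, 58.7% kB and 20.4% TATA letters. The VCAM1 window held kB letters at 3 places and TATA letters at 2 places, and the LCN2 window held 1 AP-1 match and 2 kB matches that overlap each other. No match was found in the windows of HAVCR1 and SPP1, which says only that these letters are not there. The windows of the lowered genes therefore did not share a searched motif. These matches are letters in a window and no evidence of binding.

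FGF9 was listed at 0 TPM in all NG, HG and si-FGF9 libraries and at 3.34, 4.03 and 3.82 TPM in HG+OE-FGF9, so the knockdown could not be checked from these values. The tubular epithelium list had KRT8, KRT18, PAX8, CDH2 and GGT1 well detected, at least 15.1 TPM in every library, while the brush-border genes MME and ANPEP and the water channel gene AQP1 did not exceed 2.34 TPM. Defining genes of endothelium (0 of 5 at a TPM of 1), distal nephron (0 of 6), T cells (CD3E) and podocytes (WT1) were at or near 0. The summed fibroblast list came mainly from LUM and was 62.4 to 89.2 TPM in NG against 11.6 to 40.9 in the other libraries. The summed podocyte list came mainly from PODXL and was 16.2 to 17.7 TPM in NG against 3.31 to 7.91 elsewhere, and the leukocyte list from CD68, at 108 to 159 TPM. The part of these lists in the results was not tested. Each library held 11549 to 13949 genes at 1 TPM or more. Mitochondrial genes took 4.94 to 8.60% of the TPM in si-FGF9 and 11.3 to 15.6% elsewhere. Libraries also differed by GC content (the percentage of G and C in a gene's longest transcript). The rank correlation between GC content and a library's deviation from the mean of all libraries was -0.65 to -0.55 in NG, 0.23 to 0.55 in si-FGF9 and 0.27 to 0.44 in HG+OE-FGF9. Within HG it was 0.12, 0.57 and -0.42, so the HG libraries stood apart from each other on this measure.

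In NG, SPP1 was the most abundant of the 9 genes (rank 99 among all identifiers by mean TPM), followed by CD44 (rank 206), LCN2 (656), CLU (761), HAVCR1 (1442), SOX4 (3493) and VCAM1 (4914). In HG+OE-FGF9 the order was CD44 (rank 283), SPP1 (471), LCN2 (542), CLU (593), SOX4 (6087), HAVCR1 (8587) and VCAM1 (11875). In si-FGF9 HAVCR1 (rank 7721) and VCAM1 (9909) were also far below their NG ranks, while SOX4 (3380) was not. The plot of TPM by library shows each value.

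**Figure D1:**
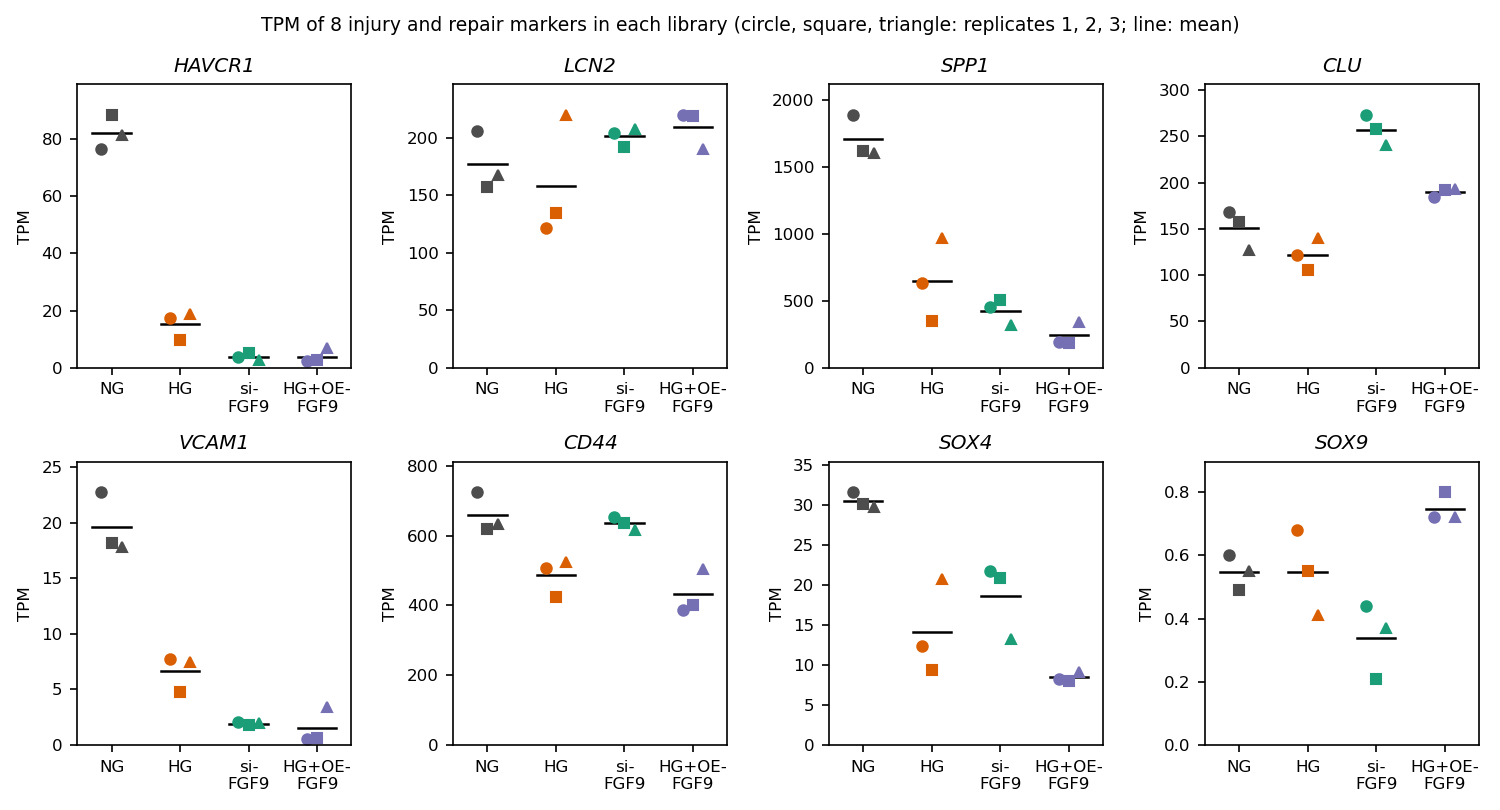
TPM (linear axis from 0, own scale for each gene) of 8 markers in the 4 groups, with points for replicates 1, 2 and 3 and lines for means. HAVCR1 falls from a mean of 82.0 TPM in NG to under 4 in si-FGF9 and HG+OE-FGF9, while LCN2 stays between 121 and 219.8 in every library. PROM1 is left out because it was listed at 0 in 9 libraries.

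HAVCR1 (ENSG00000113249) lies at chr5:157029413-157059119 on the minus strand of GRCh38. Its TPM was 76.5, 88.4 and 81.2 in the NG libraries and 17.3, 9.68 and 18.7 in the HG libraries. It was 3.79, 5.05 and 2.75 with the siRNA and 2.52, 2.55 and 6.74 with FGF9 overexpression. Every NG library was above every other library, and every HG library was above every si-FGF9 and HG+OE-FGF9 library. The means were 82.0 ± 5.99, 15.2 ± 4.87, 3.86 ± 1.15 and 3.94 ± 2.43 TPM (SD, n = 3). The level was 5.38-fold lower in HG than in NG and 21.2-fold lower in si-FGF9 than in NG, as ratios of means. In HG+OE-FGF9 it was 3.87-fold lower than in HG. The si-FGF9 and HG+OE-FGF9 groups overlapped, with a log2 difference of -0.06 and a 95% interval of -0.76 to 0.65.

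LCN2 (ENSG00000148346, chr9:128149071-128153455, plus strand) did not follow HAVCR1. NG libraries had 206, 158 and 168 TPM, and HG libraries had 121, 134 and 219. The values were 204, 192 and 207 with the siRNA and 219.8, 219 and 189.9 with FGF9 overexpression. All 6 pairs of groups overlapped, and the widest spread was within HG, where replicate 3 was the highest. The means were 177 ± 25.6, 158 ± 53.4, 201 ± 8.05 and 209 ± 17.0 TPM in the order NG, HG, si-FGF9, HG+OE-FGF9 (SD, n = 3), as for the other genes.

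SPP1 (ENSG00000118785, chr4:87975650-87983426, plus strand) moved in the direction of HAVCR1 from a much higher level. Its TPM was 1891, 1623 and 1609 in the NG libraries and 634, 347 and 969 in the HG libraries. It was 451, 505 and 320.0 with the siRNA and 194, 187 and 346 with FGF9 overexpression. The NG libraries were above all others, HG overlapped si-FGF9, and HG+OE-FGF9 was below HG by a narrow gap (346 against 347 TPM). The means were 1707 ± 159, 650.1 ± 311, 425 ± 95.2 and 242 ± 89.6 TPM (SD, n = 3).

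CLU (ENSG00000120885, chr8:27596917-27615031, minus strand) was highest in si-FGF9. NG libraries had 168, 157 and 127 TPM, and HG libraries had 121, 105 and 140.2. The values were 273, 258 and 240.2 with the siRNA and 184, 192 and 194 with FGF9 overexpression. All si-FGF9 libraries were above all HG+OE-FGF9 libraries, which in turn were above all NG and HG libraries, while NG and HG overlapped. The means were 151 ± 21.4, 122 ± 17.5, 257 ± 16.5 and 189.96 ± 5.00 TPM (SD, n = 3).

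VCAM1 (ENSG00000162692, chr1:100719742-100739045, plus strand) had 22.8, 18.2 and 17.9 TPM in the NG libraries and 7.71, 4.74 and 7.47 in the HG libraries. With the siRNA it had 2.03, 1.77 and 1.94 TPM, and with FGF9 overexpression 0.52, 0.60 and 3.38. NG was above HG, and HG was above si-FGF9 and HG+OE-FGF9, which overlapped each other. The means were 19.6 ± 2.73, 6.64 ± 1.65, 1.91 ± 0.132 and 1.5 ± 1.63 TPM (SD, n = 3), and the spread in HG+OE-FGF9 came from replicate 3.

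CD44 (ENSG00000026508, chr11:35138870-35232402, plus strand), the hyaluronan receptor, stayed abundant throughout. Its TPM was 725, 620.2 and 632 in the NG libraries and 653, 635 and 618 with the siRNA. It was 508, 426 and 525 in the HG libraries and 389, 401 and 505 with FGF9 overexpression. The NG and si-FGF9 libraries overlapped and lay above the HG and HG+OE-FGF9 libraries, which overlapped each other. On the TPM scale the groups thus split by glucose, but not under every scaling used below. The means were 659 ± 57.4, 486 ± 53.2, 635 ± 17.6 and 432 ± 63.8 TPM (SD, n = 3). A CD44 antisense gene and a gene inside an intron of CD44 overlap it, with at most 0.23 and 1.15 TPM, and whether the libraries kept the strand was not given in the sources used here.

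SOX4 (ENSG00000124766, chr6:21592768-21598619, plus strand) had 31.6, 30.2 and 29.8 TPM in the NG libraries and 12.4, 9.40 and 20.7 in the HG libraries. With the siRNA it had 21.7, 20.9 and 13.2 TPM, and with FGF9 overexpression 8.31, 8.03 and 9.09. NG was above all other libraries, HG and si-FGF9 overlapped, and HG+OE-FGF9 was lowest. The means were 30.5 ± 0.964, 14.2 ± 5.87, 18.6 ± 4.68 and 8.48 ± 0.549 TPM (SD, n = 3).

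SOX9 (ENSG00000125398, chr17:72121020-72126420, plus strand) and PROM1 (ENSG00000007062, chr4:15963076-16084378, minus strand) were barely expressed. SOX9 had 0.60, 0.49 and 0.55 TPM in the NG libraries and 0.68, 0.55 and 0.41 in the HG libraries. It had 0.44, 0.21 and 0.37 TPM with the siRNA and 0.72, 0.80 and 0.72 with FGF9 overexpression. Its HG+OE-FGF9 libraries were above those of the other groups. Without the filter its log2 difference was 0.18 from HG and 0.39 from si-FGF9, and on this scale, where 1 is added to each TPM, differences of such low values are compressed. SOX9-AS1, on the opposite strand, reached 1.59 TPM, above any SOX9 value. PROM1 was listed at 0 in 9 libraries and did not exceed 0.04 TPM, so no fold change is given for it.

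HG was compared with NG to ask how the markers differ between the high-glucose and the normal-glucose medium. Of the 7 tested markers, HAVCR1, SPP1, VCAM1 and SOX4 fell and 0 rose. A call needed an absolute log2 fold change of 1 or more together with p under 0.01 before adjustment (limma, all 12 libraries in 1 fit of log2(TPM + 1)), and adjusted p are Benjamini-Hochberg values over the 14639 genes tested. Of all these genes, 24.4% were called, 22.7% as lower and 1.65% as higher, and their median log2 fold change was -0.39. Falls of the markers are thus to be read against a table that leaned to lower values. In this bulk RNA, fewer cells of one state and less message per cell cannot be told apart.

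HAVCR1 had the largest change of the 7, a log2 fold change of -2.40 ± 0.32 (SE; adjusted p = 0.000639). SPP1 followed at -1.51 ± 0.33 (adjusted p = 0.00373), VCAM1 at -1.45 ± 0.35 (adjusted p = 0.00534) and SOX4 at -1.12 ± 0.25 (adjusted p = 0.00407). CD44 was at -0.44 ± 0.13, close to the median of all genes. Its value was -0.43 with quantile normalization, -0.06 with median-of-ratios scaling and 0.16 with GC correction, so its split by glucose depended on the scaling. LCN2 (-0.20, 95% interval -0.63 to 0.23) and CLU (-0.30, 95% interval -0.61 to 0.01) were not called, and with median-of-ratios scaling both values turned positive (0.18 and 0.08).

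Of the lowered markers, VCAM1 (35.0% GC), SPP1 (41.8%) and HAVCR1 (46.9%) were below the median tested gene (48.3%) and SOX4 (50.7%) was above it, while CD44 (45.3%), which was not called, was also below it. Over 14191 genes the rank correlation between GC content and the log2 fold change from NG to HG was 0.64, a description of 2 groups that differed in GC deviation. When a smooth function of GC content was subtracted from each library, HAVCR1 was at -1.92 (adjusted p = 0.000794) and still called. SOX4 (-0.84), SPP1 (-0.60) and VCAM1 (-0.34) then missed the fold threshold. Only HAVCR1 of the 7 was called under this correction, where 6.84% of all genes were. HG replicate 2 was the lowest HG library for 6 of the 7 tested markers. Over all tested genes its median log2 deviation from the all-library mean was -0.16, against 0.07 and 0.10 in HG replicates 1 and 3. It also had the strongest tilt to GC-rich genes of the 3, and the share of all genes lowest in it was not counted. Without it SOX4 was at -0.89 and no longer called, while HAVCR1 (-2.12), SPP1 (-1.12) and VCAM1 (-1.26) were.

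The si-FGF9 group was compared with NG, at the same glucose, to ask what the FGF9 siRNA does to the markers. HAVCR1, VCAM1 and SPP1 fell, and 0 of the 7 rose by both criteria. Of all tested genes 47.6% were called, 42.2% as lower, with a median log2 fold change of -0.79, so 3 of 7 is no larger a share than that of all genes. The sizes differed: HAVCR1 was at -4.12 ± 0.32 (adjusted p = 4.85e-06), VCAM1 at -2.82 ± 0.35 (adjusted p = 2.66e-05) and SPP1 at -2.02 ± 0.33 (adjusted p = 0.000185). CLU was at 0.77 ± 0.14 (adjusted p = 0.000367), above NG in 3 of 3 libraries but under the fold threshold, and with median-of-ratios scaling (1.60) or GC correction (1.33) it passed.

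CD44 (-0.05, 95% interval -0.33 to 0.23) and LCN2 (0.19, 95% interval -0.24 to 0.62) were not called, although most genes had a lower value than in NG. CD44 turned to 0.78 with median-of-ratios scaling and 0.95 with GC correction, still under the fold threshold, and LCN2 was called at 1.01 with median-of-ratios scaling only. SOX4 was at -0.71 (adjusted p = 0.0242) and not called, and with median-of-ratios (0.08) or quantile scaling (0.05) its sign turned. With GC correction HAVCR1 (-3.27) and VCAM1 (-1.21) stayed called, and SPP1 (-0.61) did not. Of the 2 tested members with a seed site, neither LCN2 nor SOX4 was called lower, but every si-FGF9 library was below every NG library for SOX4. Whether seed matches lowered messages was not tested.

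FGF9 overexpression in high glucose was compared with HG to ask whether added FGF9 moves the markers back. HAVCR1, VCAM1 and SPP1 were lower again than in HG, and 0 of the 7 rose. Here 5.61% of all tested genes were called, 2.67% as lower, against 3 of the 7 markers, and the median of all genes was -0.13. HAVCR1 was at -1.77 ± 0.32 (adjusted p = 0.00681), VCAM1 at -1.77 ± 0.35 (adjusted p = 0.00950) and SPP1 at -1.36 ± 0.33 (adjusted p = 0.0262). None of these 3 had a level in HG+OE-FGF9 nearer to NG than HG was. The comparison shares the HG libraries with the one of HG and NG, so the 2 sets of values are given side by side and not correlated.

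CLU was at 0.64 ± 0.14 (adjusted p = 0.0158), above HG in 3 of 3 libraries and under the fold threshold. LCN2 (0.45, adjusted p = 0.160), SOX4 (-0.61, adjusted p = 0.143) and CD44 (-0.18, adjusted p = 0.388) were not called. GC content mattered less in this comparison (rank correlation 0.29), and with its correction HAVCR1 (-1.72), VCAM1 (-1.43) and SPP1 (-1.11) stayed called, where 5.21% of all genes were. HG+OE-FGF9 replicate 3 was the highest of its group for HAVCR1, SPP1, VCAM1, CD44, SOX4 and CLU. That library was also higher over all tested genes, with a median log2 deviation of 0.07 against -0.21 in replicates 1 and 2. Without it the log2 fold changes were -2.15 for HAVCR1, -2.27 for VCAM1 and -1.65 for SPP1, and without HG replicate 3 they were -1.61, -1.68 and -1.01. In a limma fit of only the 6 libraries compared, SPP1 (-1.36) missed the p threshold and lost its call.

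**Figure D2:**
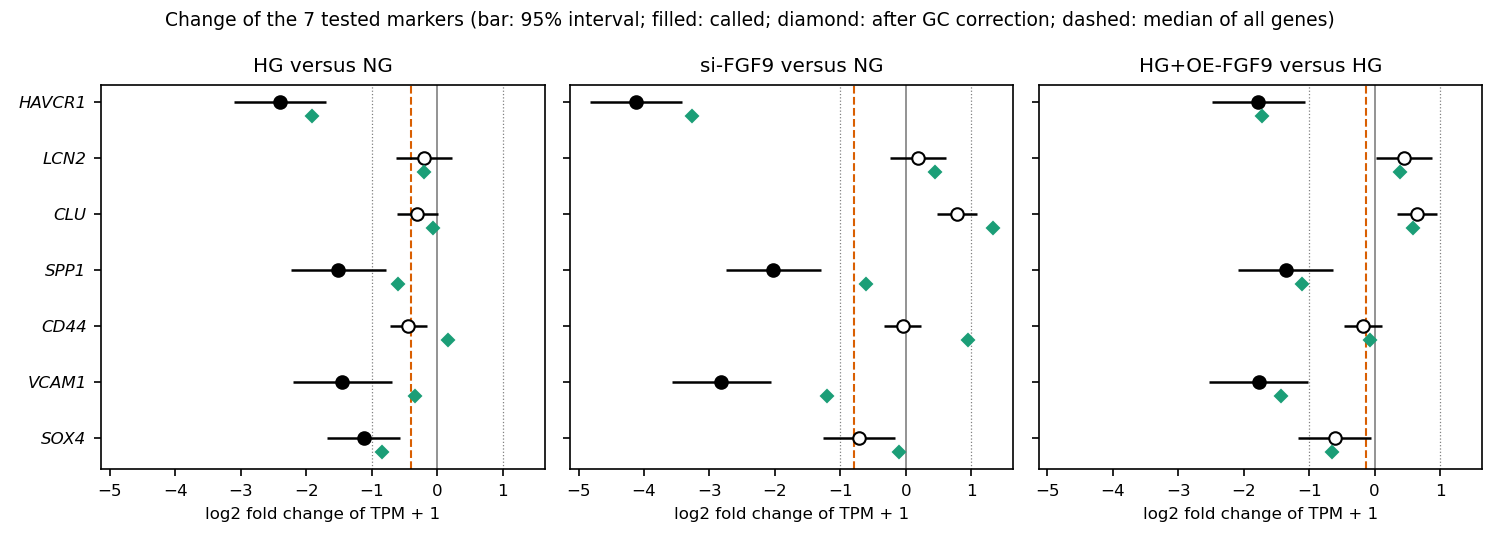
Log2 fold change of TPM + 1 (horizontal axis) for the 7 tested markers in 3 comparisons, with 95% intervals from limma; filled circles are called, diamonds are values after GC correction, and the dashed line is the median of all genes. HAVCR1 lies left of -1 in each panel with and without the correction, while VCAM1 and SPP1 move toward 0 after it in HG versus NG (-0.34 and -0.60).

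**Figure D3:**
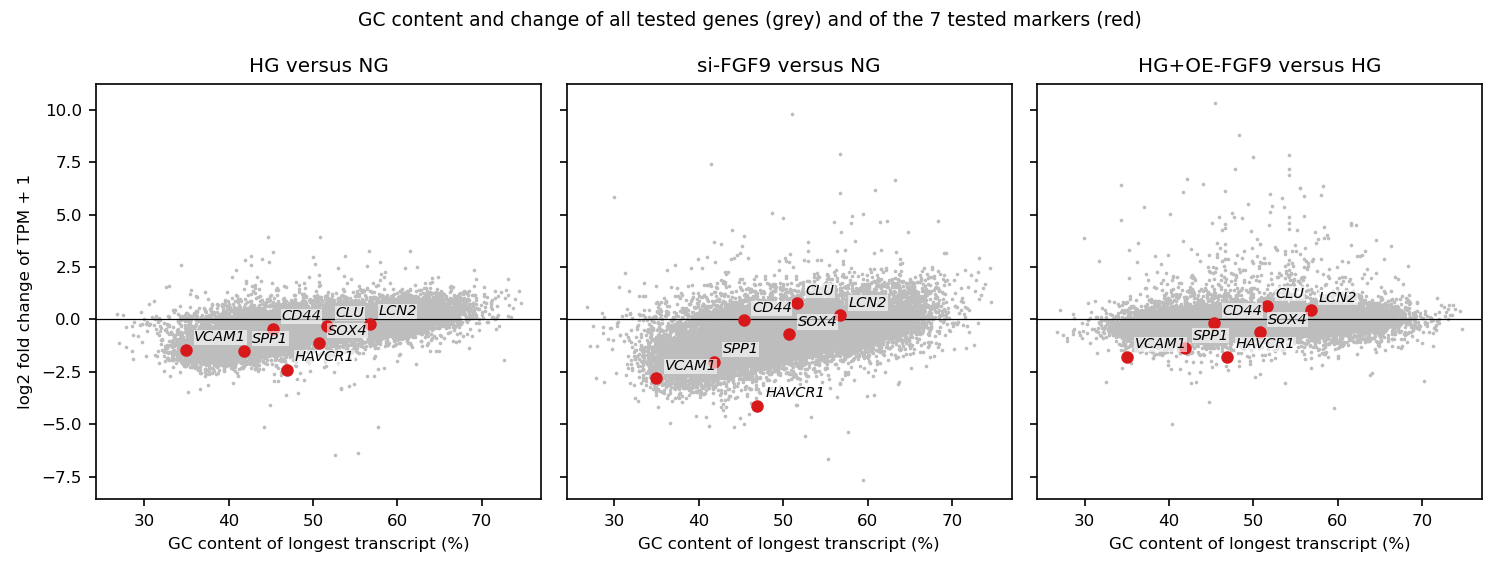
GC content of the longest transcript (percent, horizontal axis) against log2 fold change of TPM + 1 for all tested genes with a GC value (grey) and the 7 tested markers (red). VCAM1 and SPP1 sit within the grey band of AT-rich genes in the comparisons with NG, and HAVCR1 lies near its lower edge. The rank correlation is weaker in HG+OE-FGF9 versus HG (0.29) than in HG (0.64) or si-FGF9 (0.57) versus NG.

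The remaining pairs of groups placed the markers relative to each other. In HG+OE-FGF9 versus NG, HAVCR1 (-4.17), VCAM1 (-3.22), SPP1 (-2.87) and SOX4 (-1.73) fell, 4 of 7, where 39.7% of all genes were called. In si-FGF9 versus HG, HAVCR1 (-1.72) and VCAM1 (-1.37) fell and CLU rose by 1.07 (adjusted p = 0.00143), 3 of 7, where 11.1% of all genes were called. Without HG replicate 2 the CLU value was 0.97 and lost its call, as did VCAM1 with GC correction (-0.87) or quantile normalization (-0.94). In HG+OE-FGF9 versus si-FGF9 only SOX4 was called, at -1.02 (adjusted p = 0.0135), where 9% of all genes were called. That call was lost without si-FGF9 replicate 1, without si-FGF9 replicate 2 or without HG+OE-FGF9 replicate 2, and its values over the libraries left out ran from -1.24 to -0.90. HAVCR1, LCN2, SPP1 and VCAM1 overlapped between these 2 groups.

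Ratios of 2 markers within a library do not depend on how the library was scaled, and the pairs were chosen after their values were seen. The ratio of SPP1 to LCN2 was 9.18 to 10.3 in NG and 2.59 to 5.24 in HG, and with the siRNA or FGF9 overexpression 1.54 to 2.63 or 0.856 to 1.82. The ratio of HAVCR1 to LCN2 was 0.371 to 0.561 in NG and 0.0721 to 0.143 in HG, and with the siRNA or FGF9 overexpression 0.0133 to 0.0263 or 0.0115 to 0.0355. Both ratios were highest in NG with no overlap with the other groups, so the messages of KIM-1 and NGAL did not keep one proportion. The ratio of CLU to CD44 was 0.201 to 0.267 in NG and HG and 0.383 to 0.479 over the si-FGF9 and HG+OE-FGF9 libraries. These ratios still carry the difference in GC content between the genes (56.8% in LCN2, 51.7% in CLU and 45.3% in CD44).

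**Figure D4:**
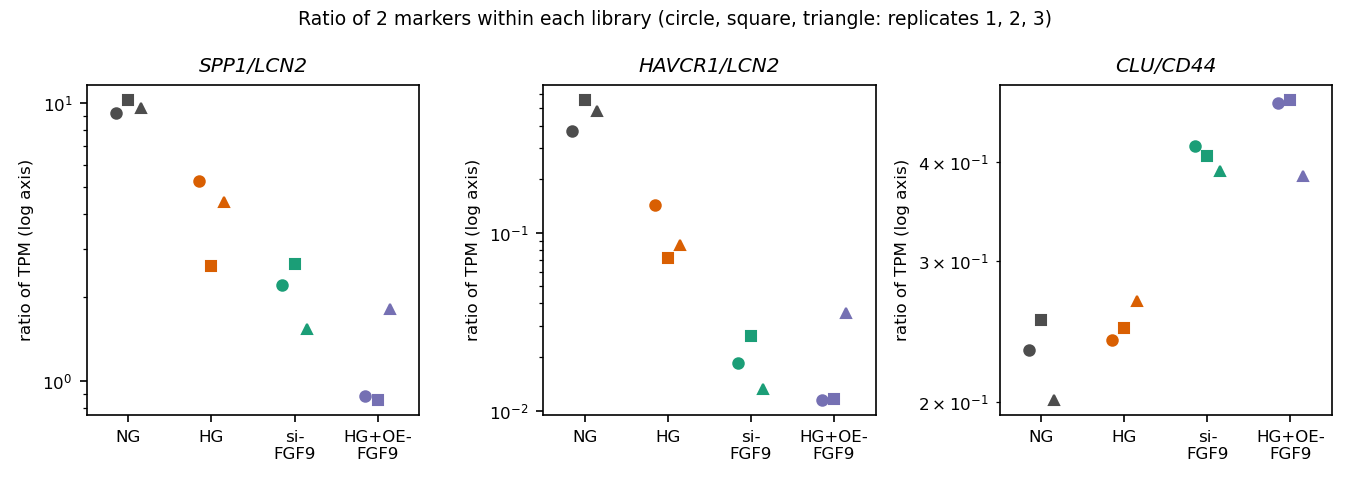
Ratios of TPM within each library (log axis) for 3 pairs of markers in the 4 groups, with points for replicates 1, 2 and 3. SPP1/LCN2 and HAVCR1/LCN2 are highest in NG (9.18 and 0.371 or above), and CLU/CD44 is 0.383 or above in si-FGF9 and HG+OE-FGF9 and 0.267 or below in NG and HG.

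Among 35 other genes linked to tubular injury and failed repair, 29 were tested. In HG versus NG 10 fell and 0 rose, in si-FGF9 versus NG 14 fell and 3 rose, and in HG+OE-FGF9 versus HG 5 fell and 3 rose. Of all genes, 22.7%, 42.2% and 2.67% were called lower and 1.65%, 5.36% and 2.94% higher. The median log2 fold changes of the list were -0.60, -0.97 and -0.39, beside -0.39, -0.79 and -0.13 for all genes. With GC correction 5, 5 and 3 fell and 1, 3 and 3 rose, where 6.84%, 24.3% and 5.21% of all genes were called. S100A6, a calcium-binding protein, rose in si-FGF9 versus NG (1.69), as did TIMP1, an inhibitor of matrix metalloproteinases (1.72), and the protease inhibitor CST3 (1.43). VIM, the intermediate filament of spreading cells, was at -0.84 there and not called. B2M, the light chain of the class I proteins that present antigens, fell in si-FGF9 (-1.84, and -0.32 with GC correction, not called).

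KLF6, a transcription factor, had the largest fall in HG versus NG (-2.33), from 120 ± 11.8 to 27.8 ± 21.4 TPM (SD, n = 3). ATF3, a stress-induced transcription factor, fell in HG versus NG (-2.33) and in si-FGF9 versus NG (-3.29) and rose with FGF9 overexpression (1.94, adjusted p = 0.00246). GDF15 (1.99), a stress cytokine, and CDKN1A (1.51), an inhibitor of the cell cycle, were the other genes of the list that rose with FGF9 overexpression. MMP7, a matrix metalloproteinase of injured tubules, fell the most there (-2.38). Beside the lower HAVCR1, the mean of ATF3 was thus 55.5 ± 12.1 TPM in HG+OE-FGF9 against 14.4 ± 6.74 in HG (SD, n = 3).

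Of 26 partners of osteopontin and hyaluronan 16 were tested, and 9, 11 and 4 fell and 0 rose in the 3 comparisons in the order above, where 22.7%, 42.2% and 2.67% of all genes were called lower. The medians were -1.14, -2.06 and -0.73. With GC correction 6, 10 and 2 fell, where 6.84%, 24.3% and 5.21% of all genes were called in either direction. ITGB1, the shared beta chain of many integrins, had 721 ± 73.8 TPM in NG and fell to 176 ± 96.8 in HG and 90.6 ± 32.5 with the siRNA (SD, n = 3). With GC correction its log2 fold changes were -1.16 and -1.48. By RT-qPCR the study reported the other direction, with more ITGB1 message in HG and si-FGF9 than in NG. For FGF9 overexpression it reported less ITGB1 than in HG, and here the value was also lower (-1.35, not called). Its supplement lists less ITGB1 message in diabetic than in control mouse kidney. ITGAV, an alpha chain that binds osteopontin and is also on the injury list, fell in all 3 comparisons (-2.19, -3.04 and -1.28, the last -0.95 and not called with GC correction). ADAM17, a protease that sheds surface proteins, had the largest fall in both comparisons with NG (-2.60 and -3.28). MMP14, which cleaves CD44, fell in both (-1.23 and -1.63), MSN, which ties CD44 to actin, only met the criteria in si-FGF9 (-1.53, and not with GC correction, -0.89), and ITGA5 was not called.

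Of 10 receptors and partners of the secreted and membrane markers 6 were tested, and 2 fell in each comparison (1, 2 and 2 with GC correction). The shares of all genes called lower were 22.7%, 42.2% and 2.67%. With GC correction 6.84%, 24.3% and 5.21% were called in either direction. VLDLR, a clusterin receptor, fell in all 3 (-1.28, -2.48 and -1.58), the first not called with GC correction (-0.44). NR4A1 fell in HG (-1.21) and si-FGF9 (-1.21), and LRP8 and SLC22A17, the NGAL receptor, were not called. Of 16 other SOX genes only SOX12 and SOX13 were tested, and neither was called.

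A list of 16 members and targets of the NF-kB, STAT3, interferon, YAP and Wnt pathways was tested in full. In the 3 comparisons 6, 11 and 2 fell and 0 rose, where 22.7%, 42.2% and 2.67% of all genes were called lower. The medians were -0.82, -1.76 and -0.34, beside -0.39, -0.79 and -0.13 for all genes. With GC correction 3, 8 and 1 fell, where 6.84%, 24.3% and 5.21% of all genes were called in either direction. SOCS3, a feedback inhibitor induced by STAT3, fell in all 3 (-1.97, -3.67 and -1.76). CCN2, a target of YAP, fell from 155 ± 15.9 TPM in NG to 8.21 ± 1.34 in si-FGF9 (SD, n = 3; log2 fold change -4.09), and CCN1, another, fell there too (-1.98). NFKBIA, the inhibitor of NF-kB, fell in si-FGF9 (-1.34, and -0.86 with GC correction, not called), while NFKB2, a subunit, was at 0.61 and not called.

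Of 21 genes of proximal tubule differentiation, 10 were tested. In HG versus NG 2 fell, in si-FGF9 versus NG 3 fell and 2 rose, and in HG+OE-FGF9 versus HG 2 fell. Over all genes 22.7%, 42.2% and 2.67% were called lower and 1.65%, 5.36% and 2.94% higher. With GC correction 1 fell, 1 fell and 2 rose, and 2 fell, where 6.84%, 24.3% and 5.21% of all genes were called in either direction. The medians were -0.12, -0.75 and -0.41, beside -0.39, -0.79 and -0.13 for all genes. GGT1, a brush-border enzyme, rose in si-FGF9 (1.23), from 78.7 ± 6.31 to 186 ± 10.3 TPM (SD, n = 3). PAX8, the renal epithelial regulator, fell in HG+OE-FGF9 versus HG (-1.31). CDH2, the cadherin of proximal tubules, fell in HG (-1.55) and si-FGF9 (-2.27) versus NG, the first not called with GC correction (-0.92).

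The 2 genes most like each abundant marker were named by the Pearson correlation of log2(TPM + 1) over the 12 libraries, as a description of 4 groups that share a scale and a GC tilt. For HAVCR1 they were LNPEP (r = 0.997) and SPARC (0.996), and for SPP1 EDIL3 (0.998) and ITM2B (0.996). SOX4 was closest to H2AC6 (0.984) and TAF1D (0.980), and CD44 to SPECC1 (0.961) and XRCC5 (0.961). LCN2, with COQ8A (0.925) and IFI27L1 (0.917), and CLU, with ATP5F1B (0.937) and CDK5RAP3 (0.929), had no gene above 0.94.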

How the data were processed

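RNA from 12 libraries of HK2 cells was sequenced on a HiSeq3000 system. The authors deposited TPM per Ensembl gene, scaled within each library and given to 2 decimals, so the depth of each library is unknown and the spread of 3 libraries alone gives the precision. The submitters' processing notes name Bowtie 0.12.2 and the build mm8, which is a mouse build, although the samples and identifiers are human. The quantifier and annotation are not given in the sources used here. Positions, GC content and transcripts were taken from GENCODE release 29 on GRCh38, which may differ from the annotation of the authors.

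Groups followed the sample labels. Differences were tested with limma 3.58.1 in R 4.3.3, with a variance trend, on log2(TPM + 1) of all 12 libraries, for the 14639 genes that reached 1 TPM in 3 or more libraries. A fold change on this scale understates that of low genes. Genes were called at an absolute log2 fold change of 1 or more and p under 0.01, the criterion of the study for these cells. The fit was tested on simulated data. For groups of 3, the smallest p of an exact two-sided permutation test is 0.1. The members and the gene lists were chosen with earlier results of these data known. From each list the text names at most 4 tested genes of highest mean TPM, the called gene with the largest change and, from the injury list, the genes called higher, which were added after their values were seen. A gene that this rule would name is not reported here. Genes most like a marker were found for markers with a mean TPM of at least 10.

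The alternatives were no filter, at least 1 TPM in every library, a fit of only 6 libraries, the replicate number as a block, other p thresholds, a pseudocount of 0.1, median-of-ratios and quantile scaling, a correction for GC content (a natural spline with 5 degrees of freedom subtracted from each library), no variance trend, and each library left out.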

Additional observations from a re-analysis of the deposited data

How the results depend on the processing

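HAVCR1 kept its direction and its call under each alternative run, and with each library left out, in the comparisons of HG and si-FGF9 with NG and of HG+OE-FGF9 with HG. The number of the 7 tested markers called in HG versus NG fell from 4 to 2 with quantile normalization and to 1 with GC correction. In si-FGF9 versus NG it went from 3 to 5 with median-of-ratios scaling, and in HG+OE-FGF9 versus si-FGF9 from 1 to 2 with that scaling or GC correction. VCAM1 in HG versus NG also missed the p threshold with a pseudocount of 0.1 (log2 fold change -1.57), and was not tested where 1 TPM was required in every library. With each library left out, markers called ranged from 3 to 4 in HG versus NG and from 0 to 2 in HG+OE-FGF9 versus si-FGF9.

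Over all genes, calls in HG versus NG went from 3570 to 2370 with 1 TPM required in every library, 2236 with quantile normalization and 970 with GC correction, and ranged from 2238 (without HG replicate 2) to 4746 (without HG replicate 3). In si-FGF9 versus NG they went from 6966 to 3452 with GC correction. In HG+OE-FGF9 versus HG they went from 821 to 428 with 1 TPM required in every library, and ranged from 549 (without HG+OE-FGF9 replicate 2) to 1617 (without HG+OE-FGF9 replicate 3), with 1360 without HG replicate 2. In HG+OE-FGF9 versus NG they went from 5818 to 3825 and 3274 under the stricter filter and GC correction. In si-FGF9 versus HG they went from 1620 to 2719 with a pseudocount of 0.1, 877 with quantile normalization and 831 with GC correction, and ranged from 1051 (without HG replicate 1) to 2566 (without HG replicate 2). In HG+OE-FGF9 versus si-FGF9 they went from 1318 to 782 under the stricter filter and 2126 with a pseudocount of 0.1. The cause of these moves was not tested, beyond the fewer genes tested under the stricter filter (9903).

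Median-of-ratios scaling moved the median of all genes from -0.39 to -0.09 in HG versus NG and from -0.79 to -0.17 in si-FGF9 versus NG. The split of higher and lower calls depended on scaling. In HG versus NG it was 242 and 3328, against 760 and 1694 with median-of-ratios scaling, 1016 and 1220 with quantile normalization and 536 and 434 with GC correction. In si-FGF9 versus NG it was 785 and 6181, against 2203 and 3269, 2373 and 2500, and 1751 and 1701. In HG+OE-FGF9 versus HG it was 430 and 391, against 509 and 275, 487 and 318, and 430 and 309.

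The replicate numbers gave no clear sign of pairing: 3 of 18 same-number pairs correlated above 0.1, and r ran from -0.44 to 0.25. Pairs with different numbers were not compared, so these values cannot show whether the libraries were paired. The replicate block alone gave 3518 calls over all genes in HG versus NG, 6922 in si-FGF9 versus NG and 793 in HG+OE-FGF9 versus HG, and changed no call of a marker. With GC correction and the replicate block together the marker counts were 1 in HG versus NG and 2 in HG+OE-FGF9 versus si-FGF9, and the counts over all genes were 968 in HG versus NG, 3426 in si-FGF9 versus NG, 3249 in HG+OE-FGF9 versus NG and 797 in si-FGF9 versus HG.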
